A study of Mus musculus with 10 samples.

Results

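α-Defensins are the small antimicrobial peptides that mouse Paneth cells secrete into the crypt, where they are also called cryptdins. The genes followed here are those in the 10 single-cell RNA-seq libraries whose symbol begins with Defa, together with AY761184 and Gm14851. Of 31053 genes in the matrices, 24 fitted this description, and 19 of them had at least 10 UMIs (unique molecular identifiers, 1 for each captured transcript) over the kept cells. Under that minimum were Defa25 with 6 UMIs, Defa2 with 8, Defa31 with 1, and Defa33 and Defa37 with 0. Except for Defa25, these genes shared every 100-base window of their transcripts with another gene, so their low counts do not show absence.

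The libraries came from organoids grown from crypts of the mouse proximal small intestine and from colonic crypts. ENR-organoids (3 libraries, at passage 2, 7 and 3) were grown with EGF, Noggin and R-Spondin 1. The 3 libraries of Hyper-organoids (passage 1, 6 and 3) came from a medium of 8 components. These were VPA (valproic acid, which inhibits histone deacetylases), EPZ6438 (which inhibits the histone methyltransferase EZH2), LDN193189 (which blocks BMP receptors), GSK-3 Inhibitor XV, Pexmetinib (a kinase inhibitor), EGF, bFGF and conditioned medium with R-Spondin 1. For the -VE-organoids (2 libraries, at passage 1 and 6), VPA and EPZ6438 were left out of that medium. Replicates 1 and 2 of the Hyper- and -VE-organoids were derived from ENR-organoids, and replicate 3 of the ENR- and Hyper-organoids came from primary crypts. Every organoid medium thus held EGF and R-Spondin 1. Colonic crypts were those of normal mice (1 library) and of mice given DSS, dextran sulfate sodium, which injures the colon (1 library). Per the study's methods, crypts for organoids came from mice aged 6 to 12 weeks and the colitis model used females aged 8 weeks. C57BL/6 mice and an Lgr5-EGFP-IRES-creERT2 line crossed to a tdTomato reporter are named there, without saying which of them gave each library.

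Each α-defensin is made as a precursor with a signal peptide and a propeptide, and in mice the matrix metalloproteinase Mmp7 cuts the precursor to release the active peptide. The classical α-defensins carry 6 cysteines that form disulfide bonds, while the cryptdin-related (CRS) members carry a longer run of cysteines. Wnt signalling through the factor Tcf7l2 is known to be needed for Paneth cell maturation and for transcription of these genes.

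The 19 genes lay in one cluster on chromosome 8, between positions 21025545 and 21735471 of GRCm38, a span of 710 kb. All 19 were annotated as protein coding with 2 exons, 16 on the plus strand and 3 on the minus strand. By their coding sequence 15 members had 6 cysteine codons, Defa28 had 7, and Gm14851, AY761184 and Defa29 had 11, which makes these 3 CRS-type genes. They were also the 3 minus-strand members. The coding stretch from the first cysteine codon to the stop codon is shown for the members with most UMIs and for 1 near-identical copy, with cysteine codons in capitals, 5′ to 3′ on the coding strand of GRCm38.
Defa24: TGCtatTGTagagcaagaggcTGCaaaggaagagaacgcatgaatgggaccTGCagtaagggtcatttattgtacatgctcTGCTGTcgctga
Defa30: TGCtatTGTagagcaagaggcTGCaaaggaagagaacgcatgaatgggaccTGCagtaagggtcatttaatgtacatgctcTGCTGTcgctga
Defa17: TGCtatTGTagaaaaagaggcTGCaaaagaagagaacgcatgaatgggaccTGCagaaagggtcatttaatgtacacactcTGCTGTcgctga
Defa3: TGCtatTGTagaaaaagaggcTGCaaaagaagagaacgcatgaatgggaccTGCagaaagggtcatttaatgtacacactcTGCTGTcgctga
Defa21: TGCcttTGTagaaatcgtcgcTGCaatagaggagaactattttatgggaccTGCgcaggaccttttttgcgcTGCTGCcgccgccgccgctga
Gm14851: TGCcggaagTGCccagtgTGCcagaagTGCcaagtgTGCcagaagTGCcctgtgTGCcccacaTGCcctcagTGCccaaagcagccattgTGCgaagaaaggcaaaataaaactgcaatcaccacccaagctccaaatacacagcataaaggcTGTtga
AY761184: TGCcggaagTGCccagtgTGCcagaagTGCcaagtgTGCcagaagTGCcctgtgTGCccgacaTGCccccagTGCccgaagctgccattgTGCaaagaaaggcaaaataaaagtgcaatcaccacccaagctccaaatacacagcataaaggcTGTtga
Defa24 lies at chr8:21734494-21735471 and Defa30 at chr8:21134642-21135598. Defa17 lies at chr8:21655780-21656735, Defa3 at chr8:21287409-21288377 and Defa21 at chr8:21025545-21026516, and all 5 are on the plus strand. Gm14851 lies at chr8:21095074-21096050 and AY761184 at chr8:21702519-21703645, both on the minus strand.

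The members are so alike that reads can be shared among them. Spliced transcripts were 91.4% to 100% identical to their nearest copy in the family. Defa23 and Defa31 were 100% identical over the shared length, as were Defa36 and Defa37, and Defa3 and Defa17 were 99.7% identical. Of all windows of 100 bases in a transcript, the share found in no other gene was 100% for Defa24 and for AY761184, 99.7% for Defa30, 98.9% for Defa26 and 82.1% for Gm14851. The same share was 9.40% for Defa17, 13.2% for Defa3, 5.30% for Defa36, and 0.307% for Defa20 and for Defa32. Counts of Defa24, Defa30, AY761184, Defa26 and Gm14851 were thus less open to sharing, whereas those of Defa17, Defa3, Defa36, Defa20 and Defa32 are uncertain between copies. So are those of Defa23 (10.9% of windows in no other gene), Defa5 (11.9%) and Defa34 (25%), the last 2 being each other's nearest copy at 98.9% identity. Defa21 and Defa22 were 99.5% identical to each other, with 59.6% and 59.7% of windows in no other gene, and can share reads as well. Windows were compared with the annotated transcripts of all genes, whereas identity to the nearest copy was computed among the family symbols listed here only.

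RefSeq promoter sequences (GRCm38.p6) were matched for 10 of the 19 members, with Gm14851 entered there as Defa38. The TCF/LEF core ATCAAAG, searched on both strands in the 250 bases before the start, was present in 9 of the 10 (90%) and in 1053 of 32851 promoters of the same length (3.21%). The TATA box letters TATAAA, searched likewise, were also present in 9 of the 10, against 4063 of all promoters (12.4%). The 150 bases before the RefSeq start are shown for Defa30, for Gm14851, the member without the core, and for Defa21, whose 150 bases are identical to those of Defa22. Capitals mark ATCAAAG and TATAAA, and the sequences run 5′ to 3′ on the gene's strand.
Defa30: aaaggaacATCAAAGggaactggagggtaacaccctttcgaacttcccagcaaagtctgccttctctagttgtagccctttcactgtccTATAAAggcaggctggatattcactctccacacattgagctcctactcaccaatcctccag
Defa21: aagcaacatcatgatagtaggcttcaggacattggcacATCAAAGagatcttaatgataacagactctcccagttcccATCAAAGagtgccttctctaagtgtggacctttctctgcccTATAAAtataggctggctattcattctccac
Gm14851: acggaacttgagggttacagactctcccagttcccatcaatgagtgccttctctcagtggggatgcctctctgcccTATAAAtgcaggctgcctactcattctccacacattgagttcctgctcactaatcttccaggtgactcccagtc
These stretches are chr8:21134500-21134649 (plus strand), chr8:21025395-21025544 (plus strand) and chr8:21096051-21096200 (minus strand). The core stood 1 time in the Defa30 stretch, 2 times in that of Defa21 and 0 times in that of Gm14851, whereas Defa28 was the member without TATAAA. A match is a description of the letters and not evidence of binding.

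The 8 organoid libraries held 1983 to 4293 kept cells with 89124015 to 170019527 UMIs. At most 5 cell barcodes were shared by any pair of libraries. Cell classes are those of the authors' annotation. It used Defa30, Defa3, Lyz1 and Ang4 among its Paneth cell markers and Tff3 and Muc2 among its goblet cell markers. Levels of α-defensins and of these markers in one class against another are therefore descriptive. No source says that the replicates came from different animals, so the p-values measure the spread between these libraries.

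Defa24 dominated the counts of the family, with 72.4% of all α-defensin UMIs of the kept organoid cells, counted at the 3′ end and not divided by length. Counts of members that share most windows with other genes, such as Defa17, are uncertain, so this is a share of counted UMIs. Defa30 held 13.9%, Defa17 4.14%, AY761184 2.07%, Gm14851 1.88% and Defa21 1.10%, and the other 13 members held under 1% each. All α-defensins together took 3502, 3740 and 4411 CPM (counts per 1000000 UMIs of the cells named) in ENR-organoids (mean 3884 ± 472, SD, n = 3) and 3626 and 3190 in -VE-organoids (3408 ± 308, n = 2). In Hyper-organoids they took 957, 527 and 680 CPM (721 ± 218, n = 3), below every other organoid library. The Hyper-organoid mean was 5.38-fold lower than that of ENR-organoids and 4.72-fold lower than that of -VE-organoids. In sums over a library, fewer Paneth cells and less α-defensin RNA per cell cannot be told apart, and the classes are therefore described separately further on.

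Growth in the 8-component medium was first set against growth in the ENR medium. All 19 α-defensins were lower in Hyper- than in ENR-organoids (edgeR quasi-likelihood test, Benjamini-Hochberg adjusted p under 0.05 and at least 2-fold), against 4.75% of the 16037 genes tested called lower. Their median log2 fold change was -3.18, and that of all genes tested was -0.01. Every Hyper-organoid library lay below every ENR-organoid library in 19 of 19 members, which held for 21% of all genes tested. With the culture series as a block 18 of 19 were called, Defa32, with 30 or fewer UMIs in each group, being the exception.

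Defa24 stood at 2572, 2578 and 3226 CPM in ENR-organoids, 2472 and 2304 in -VE-organoids, against 776, 429 and 600 in Hyper-organoids. Its log2 fold change in Hyper- against ENR-organoids was -2.35 ± 0.21 (SE, edgeR adjusted p = 4.6e-05). Defa30 stood at 477, 553 and 615 in ENR-organoids, 629 and 432 in -VE-organoids, against 78.3, 46.2 and 34.5 in Hyper-organoids. The ENR- and -VE-organoid values of both genes overlapped or lay close together, and all Hyper-organoid values were far below them. For Defa30 the log2 fold change was -3.50 ± 0.31 (edgeR adjusted p = 4.6e-05).

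Defa17, which shares reads with Defa3, stood at 146, 148 and 130 CPM in ENR-organoids, 158 and 143 in -VE-organoids, against 55.6, 28.3 and 22.1 in Hyper-organoids. Defa3 had the smallest fall of the family in this comparison, with 15.0, 14.3 and 9.09 CPM in ENR-organoids, 21.3 and 16.3 in -VE-organoids, against 5.13, 4.12 and 2.46 in Hyper-organoids and a log2 fold change of -1.83 ± 0.27 (edgeR adjusted p = 0.00069). Defa17 had -2.13 ± 0.30, close to its near-identical copy, whereas Defa20 (-3.60 ± 0.37) and Defa32 (-1.86 ± 0.69), also near-identical, were further apart. Defa21 was uneven among ENR-organoids, at 19.9, 90.3 and 83.0 CPM, with 25.9 and 13.9 in -VE-organoids, against 5.49, 0.380 and 1.31 in Hyper-organoids. Replicate 1 of the ENR-organoids was the low one, and its level fell within the range of the -VE-organoids.

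The 2 largest falls were in CRS-type genes. Gm14851 was at 59.9, 60.1 and 69.6 CPM in ENR-organoids, 104 and 79.5 in -VE-organoids, against 0.982, 1.73 and 0.0554 in Hyper-organoids, where it had 136, 246 and 5 UMIs. Its log2 fold change was -6.14 ± 0.61 against ENR-organoids (edgeR adjusted p = 7.6e-05) and -6.68 ± 0.63 against -VE-organoids (edgeR adjusted p = 0.00015). AY761184 was at 89.4, 120 and 118 in ENR-organoids, 37.4 and 63 in -VE-organoids, against 4.86, 4.09 and 2.08 in Hyper-organoids. This gene, like Defa24 and Defa22, kept an order of groups with no overlap, ENR- above -VE- above Hyper-organoids. The share of all genes so ordered is not given. The step from ENR- to -VE-organoids was not called for AY761184, Defa24 or Defa22 (edgeR adjusted p = 0.082, 0.6 and 0.2). For Defa24 its log2 fold change was -0.22 ± 0.22, so no graded order of media is read from these values. Defa29, the third CRS-type gene, had a log2 fold change of -3.08 ± 0.13 against ENR-organoids, close to the family median.

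**Figure D1:**
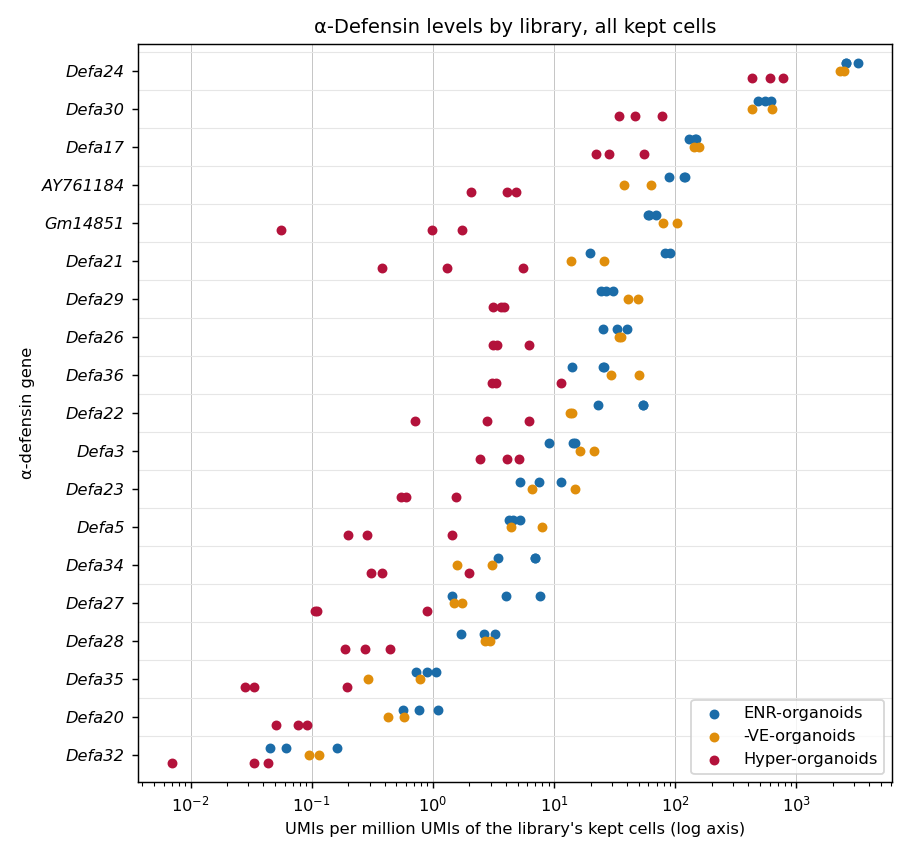
The level of each of the 19 α-defensins in the 8 organoid libraries is plotted as CPM of the library's kept cells on a log axis, 1 point for each library. The Hyper-organoid points lie below all ENR-organoid points for every gene, by the widest distance for Gm14851.

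The second comparison asked what VPA and EPZ6438 together change within the 8-component medium. The Hyper-organoid libraries are the same as in the first comparison, so the values are not independent of it. Hyper-organoids were lower than -VE-organoids in 17 of 19 members, against 2.51% of genes called lower, with a median log2 fold change of -2.91. Defa34, the smallest change here, stood at 6.99, 6.91 and 3.43 CPM in ENR-organoids, 3.05 and 1.57 in -VE-organoids, against 1.98, 0.310 and 0.377 in Hyper-organoids. Defa34 (-1.50 ± 0.73, edgeR adjusted p = 0.13) and Defa27 (-2.23 ± 0.92, edgeR adjusted p = 0.079) were not called. Hyper-organoids lay below both -VE-organoid libraries in 18 of 19 members, with overlap in Defa34, and 20.7% of all genes tested were so ordered. With the block for culture series 16 were called, the further loss being Defa32. Without -VE-organoids replicate 1, 13 members were called, and without Hyper-organoids replicate 1 18 were, with Defa34 (-2.89) and Defa27 (-4.02) gained and Defa22 (-2.17) lost.

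The third comparison set -VE- against ENR-organoids, which differ in the other components of the medium. Here 0 of 19 members were called by edgeR, while edgeR called 2.55% of all genes in either direction. An unadjusted p under 0.05 was reached by 3 members, and DESeq2 called 1. The share of all genes is not given for these last counts, and they are not read as a result. The smallest difference was that of Defa30, with a log2 fold change of -0.04 ± 0.32, and the largest that of Defa21, with -1.70 ± 0.94 (edgeR adjusted p = 0.32). AY761184 had -1.12 ± 0.33 (edgeR adjusted p = 0.082). Defa29 had an edgeR adjusted p of 0.018 with a log2 fold change of 0.72 ± 0.13, under the 2-fold limit. Without Hyper-organoids replicate 3, 1 member was called, and it was lower. Missing the threshold does not show that the remaining members were equal in these media, since the standard errors reached 0.94.

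The classes of the annotation showed where the UMIs were. The Paneth class held 32, 40 and 54 cells in ENR-organoids, 30 and 59 in -VE-organoids, against 10, 2 and 2 in Hyper-organoids. In a Paneth-class cell, α-defensins took a large part of the transcriptome, 35.5%, 35.5% and 36.4% of all UMIs in ENR-organoids and 31.8% and 23.8% in -VE-organoids. In Hyper-organoids the share was 15.2%, 24.1% and 17.8%, from the few cells named above. The Paneth class accounted for 71.0%, 72.2% and 67.4% of a library's α-defensin UMIs in ENR-organoids, 64.6% and 59.0% in -VE-organoids, but 30.2%, 12.9% and 13.2% in Hyper-organoids.

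Most of the remainder was in the goblet class, which is named for mucus-secreting cells. It held 24.5%, 23.9% and 27.9% of the α-defensin UMIs in ENR-organoids, 30.9% and 36.7% in -VE-organoids, against 58.2%, 80.6% and 75.7% in Hyper-organoids. The level within the class was 25736 ± 5543 CPM in ENR-organoids (n = 3), 17971 ± 2937 in -VE-organoids (n = 2) and 10654 ± 1741 in Hyper-organoids (n = 3), and the 3 ranges did not overlap. The enteroendocrine class of Hyper-organoids reached 4337, 1480 and 2892 CPM, that of -VE-organoids 2990 and 4175, and that of ENR-organoids 1480, 1230 and 82.2. The Hyper-organoid range met that of ENR-organoids at 1480 and held both -VE-organoid values, and no order was read from them. A few cells carried the Hyper-organoid level, as 13 of 97, 6 of 107 and 7 of 86 cells had at least 1% of their UMIs from α-defensins (2.94%, 2.43% and 2.87% of the UMIs of these cells), against 0.0629%, 0.0360% and 0.0368% in the other cells of the class.

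**Figure D2:**
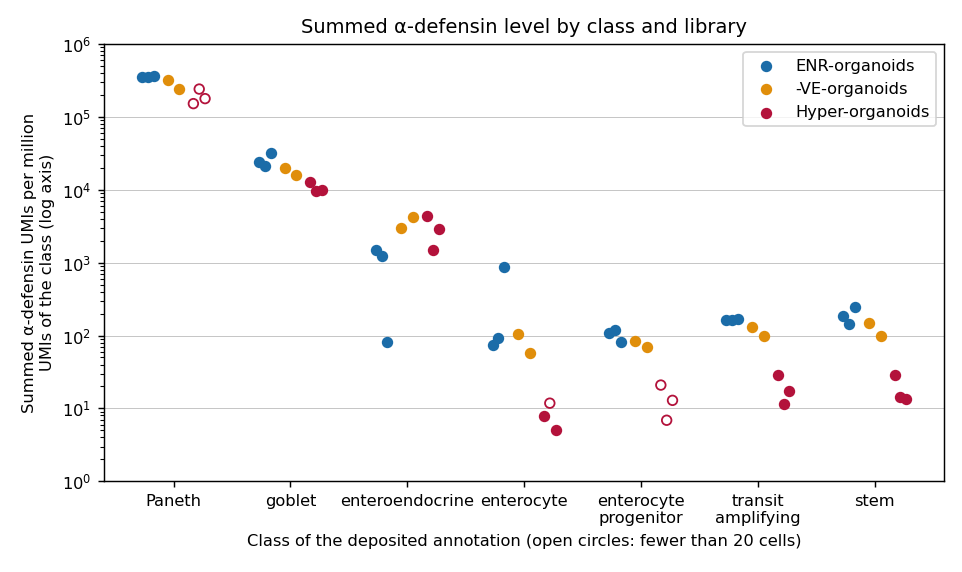
Summed α-defensin CPM UMIs of each class are plotted on a log axis, 1 point for each organoid library, with open circles for a class of fewer than 20 cells. Levels are highest in the Paneth class (151929 to 364289), followed by the goblet class (9488 to 32006). Stem cells (13.6 to 248) lie far lower, and the enterocyte class reaches down to 5.13.

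The goblet-class signal came from particular cells. Cells with at least 1% of their UMIs from α-defensins numbered 74, 88 and 116 in ENR-organoids, 100 and 211 in -VE-organoids, against 65, 72 and 46 in Hyper-organoids. They held 89.5% to 96.7% of each library's α-defensin UMIs. Among them 37, 42 and 56 were of the goblet class in ENR-organoids, 64 and 143 in -VE-organoids, against 42, 64 and 37 in Hyper-organoids. The goblet class was thus split, since 28.6% to 44.8% of goblet-class cells were above this limit in ENR-organoids. In ENR-organoids these goblet-class cells had 7840 CPM of Lyz1, the Paneth cell lysozyme, against 23204 in the Paneth class and 1125 in the other goblet-class cells. Their level of Tff3, a goblet cell trefoil peptide, was 24279 CPM against 14416 in the other goblet-class cells. The Paneth class had 15458 CPM of Tff3, so this gene did not separate it from the other goblet-class cells. Doublets were not removed, and their part in these cells was not tested.

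Which α-defensins were used differed between these cells and the Paneth class. In the Paneth class of ENR-organoids, Defa24 made up 64.6 ± 2.72% of the α-defensin UMIs, Defa30 18.8 ± 0.757% and the 3 CRS-type genes 6.63 ± 0.529% (SD, n = 3). In goblet-class cells above the 1% limit, Defa24 made up 91.9 ± 0.929% and Defa30 1.35 ± 0.393%. The CRS-type genes were at 1.14% there, and Gm14851 alone was at 0.0709%, against 2.20% in the Paneth class. These differences far exceeded the spread between libraries, but Defa30 was among the genes that defined the Paneth class.

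For Defa24 and Defa30 the contrast had the same direction in every library of the other media. In -VE-organoids the Paneth class had 59.4% Defa24, 22.6% Defa30 and 8.21% CRS-type genes, and the goblet-class cells 89.8%, 2.25% and 0.913%. In Hyper-organoids the 14 Paneth-class cells gave means of 63.9%, 22.4% and 3.01%, and the goblet-class cells 87.3%, 4.47% and 0.828%. The CRS-type share of those few Paneth-class cells was 2.78%, 5.94% and 0.320% by library, and in replicate 3 it was below the 1.01% of the goblet-class cells. Defa17, a classical α-defensin, showed no such gap, as 56.0% of its UMIs in -VE-organoids were in the Paneth class, close to the 52.0% of Defa24. The corresponding shares were 90.5% for Defa30 and 95.3% for Defa5. Of the CRS-type genes, Gm14851 had 96.7%, Defa29 96.5% and AY761184 79.2%. AY761184 was the most abundant of them over all organoid libraries, but Gm14851 was in -VE-organoids.

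**Figure D3:**
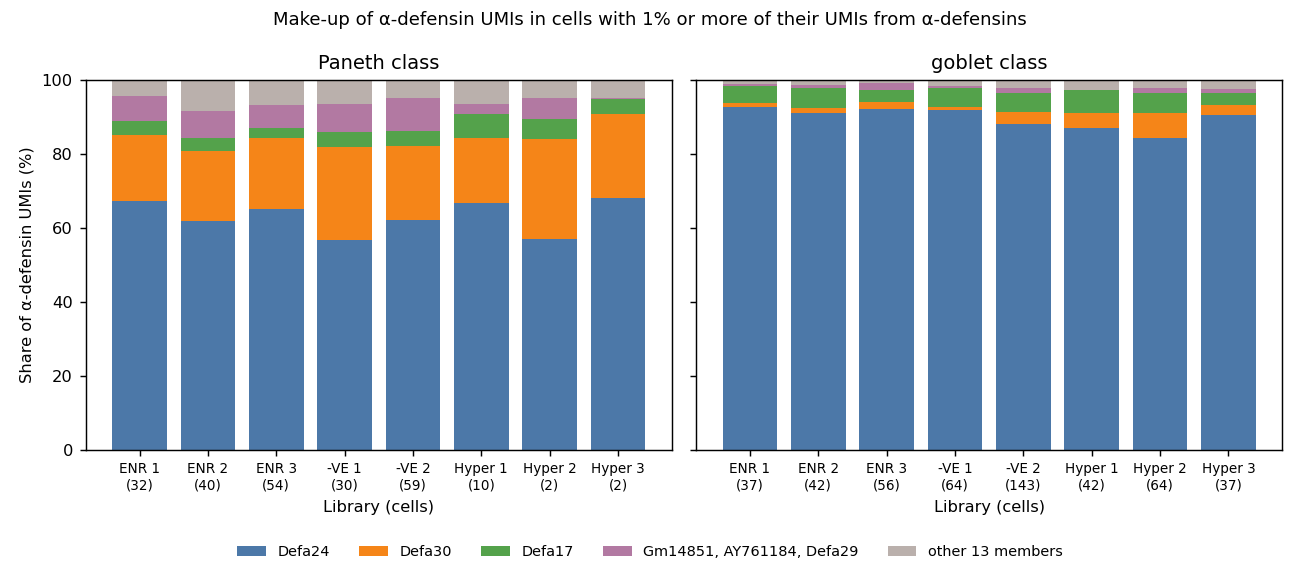
Stacked bars give the share of α-defensin UMIs from Defa24, Defa30, Defa17, the 3 CRS-type genes and the other members in each organoid library, for Paneth-class cells (left) and goblet-class cells (right) with at least 1% of their UMIs from α-defensins, with cell numbers in brackets. Defa30 is a visible block on the left, 17.6% to 27.0%, and a thin one on the right, 0.926% to 6.63%.

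The same contrast was seen along the α-defensin share of the cell, with classes pooled and cells under 1% set aside. The bins differed in class, since the ENR-organoid bin of 1% to 2% held 18 goblet-class and 0 Paneth-class cells of 21, and all 66 cells over 30% were of the Paneth class, so this is no separate result. In ENR-organoids Defa30 supplied 1.06% of the α-defensin UMIs in cells where the family took 1% to 2% of all UMIs, and 22.1% where it took over 30%. The CRS-type genes went from 0.305% to 7.32% between the same bins. In -VE-organoids Defa30 went from 3.21% to 29.4%. In Hyper-organoids it went from 1.62% to 13.9% in the bin of 10% to 30%, which held 22 cells. Above 1% the cells with most α-defensin thus had most Defa30 within it in all 3 media. Cells under 0.1% and from 0.1% to 0.5% had 15.5% and 15.1% Defa30 in ENR-organoids, so the order did not extend to the lowest cells.

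**Figure D4:**
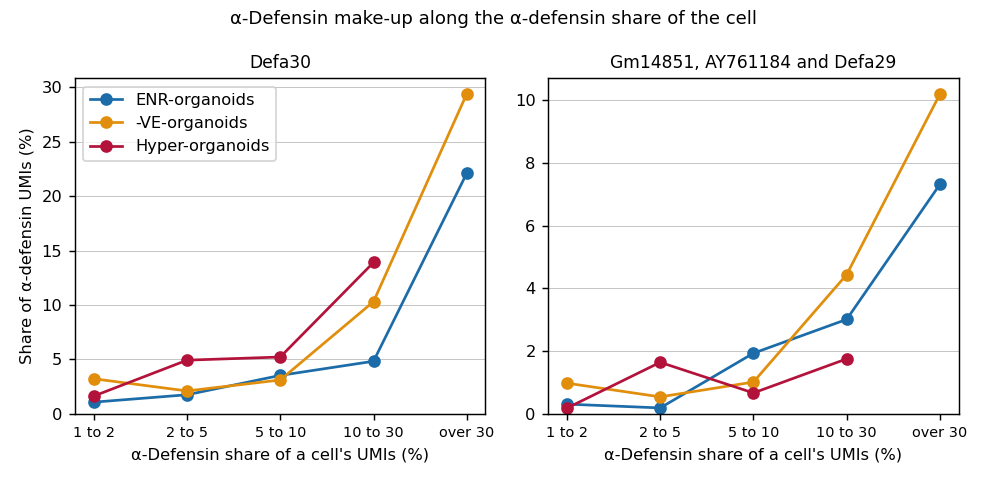
The share of α-defensin UMIs from Defa30 (left) and from Gm14851, AY761184 and Defa29 together (right) is plotted against the α-defensin share of the cell's UMIs in 5 bins, 1 line for each medium with libraries pooled and bins under 20 cells left out. The ENR- and -VE-organoid lines rise most in the last bin, where Defa30 reaches 22.1% and 29.4%.

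Leaving out the Paneth class asked whether the fall in Hyper-organoids was also present elsewhere. The summed level was then 1172 ± 240 CPM in ENR-organoids, 1306 ± 17.5 in -VE-organoids and 573 ± 106 in Hyper-organoids, which is 2.05-fold and 2.28-fold lower. Of the 16 members that passed the expression filter, 7 were called lower against ENR-organoids, where 4.62% of all genes were, and 10 against -VE-organoids, where 2.43% were. Against -VE-organoids 13 of 16 were below 0, and the highest was Defa22 (1.51 ± 0.73, edgeR adjusted p = 0.12). DESeq2 and the fit without Hyper-organoids replicate 2 each called 1 member higher there. With the block for culture series 7 and 9 were called, the loss being Defa23, which fell under 2-fold (-1.07 without and -0.89 with the block). Between -VE- and ENR-organoids 0 of 16 were called by edgeR, against 2.55% of all genes. An unadjusted p under 0.05 was reached by 3, and DESeq2 called 2. The share of all genes is not given for these last counts, and they are not read as a result.

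The 7 members called against ENR-organoids were Defa24, Defa17, Defa26, Defa28, Defa21, AY761184 and Gm14851. Defa24 changed by -1.18 ± 0.19 (edgeR adjusted p = 0.0010) and Gm14851 by -4.31 ± 0.50 (edgeR adjusted p = 0.00018). In ENR-organoids, transit amplifying cells held 2.98% of all Defa21 UMIs and the goblet class 0.201%. For Gm14851 these shares were 2.67% and 1.21%. Free RNA was not separated from expression in transit amplifying cells, so the falls of Defa21 and Gm14851 are not read as expression there. Defa30 had -0.81 ± 0.27, short of 2-fold, and Defa22 (0.12 ± 0.62), Defa34 (0.46 ± 0.67) and Defa36 (0.49 ± 0.39) had values above 0 that did not pass the test. The fitted fall was thus smaller than over all kept cells for each of the 16 once the annotated Paneth class alone was left out. It depended on which cells remained. Without the marker-chosen cells (cells rich in other Paneth cell genes) as well, 11 were called lower, against 4.71% of genes, with a median log2 fold change of -1.64 in place of -0.89. Without cells with at least 1% of their UMIs from α-defensins, a choice made on the level itself, 13 were called lower, against 4.66% of genes, with a median of -2.58. Defa21 then had -5.28, past its -4.87 over all kept cells, whereas Defa24 had -1.09. Without ENR-organoids replicate 3 the change of Defa24 was -0.95, short of 2-fold.

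**Figure D5:**
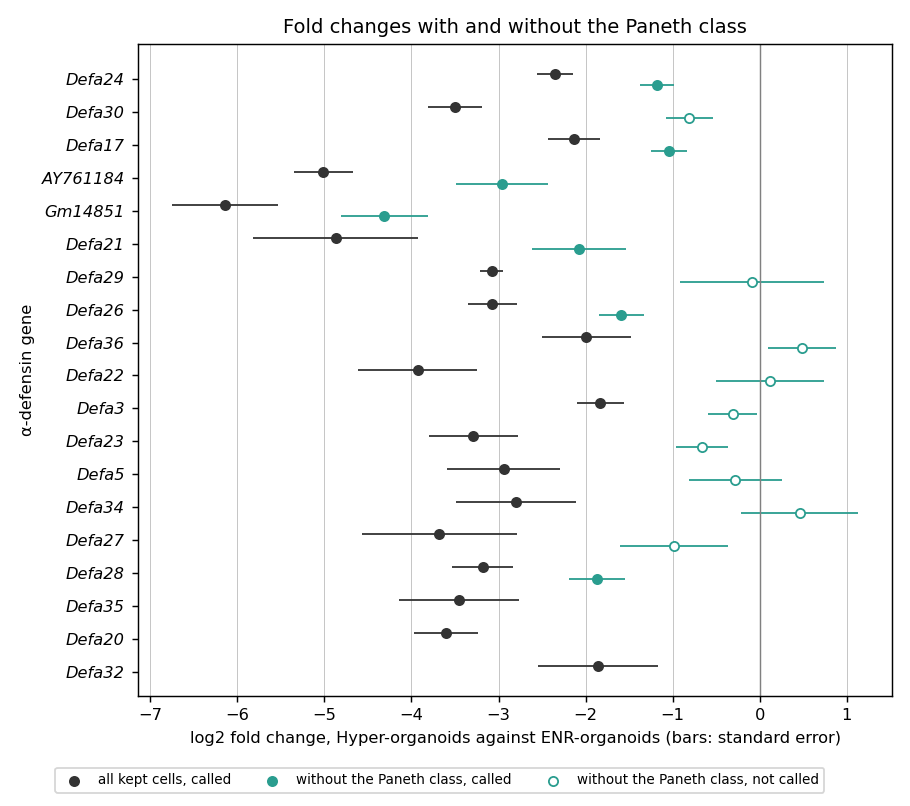
The log2 fold change of each α-defensin in Hyper- against ENR-organoids is plotted with its standard error, over all kept cells (dark) and without the Paneth class (green, filled where called). All dark points lie between -6.14 and -1.83, and the green points between -4.31 and 0.49.

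Goblet-class cells were then fitted alone, an analysis chosen after the data were seen. Of 16 members, 5 were called lower in Hyper- than in ENR-organoids, against 2.64% of genes, and 3 were called higher, against 10.7% of genes. With so few members, the count called higher is not read as a result about the family. The goblet class held 7, 10 and 8 marker-chosen cells in ENR-organoids and 25, 41 and 30 in Hyper-organoids. The part of these cells in the calls was not tested. Lower were Defa24 (-1.46 ± 0.17, edgeR adjusted p = 8.4e-05), Defa17 (-1.15 ± 0.22), Defa26 (-1.63 ± 0.18), Defa28 (-1.92 ± 0.26) and AY761184 (-2.90 ± 0.56). Defa30 did not pass, at 0.21 ± 0.37, nor did Gm14851 (-2.81), and Defa21 was not called.

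The 3 members called higher were minor ones, and reads can be shared between Defa5 and Defa34 and between Defa22 and Defa21. Defa5 had 0, 1 and 0 UMIs in the goblet class of ENR-organoids and 46, 28 and 14 in that of Hyper-organoids (edgeR adjusted p = 0.00093). Defa22 had 5, 7 and 9 UMIs in ENR-organoids and 278, 95 and 476 in Hyper-organoids (edgeR adjusted p = 0.0024). Defa34 had 16, 12 and 8 UMIs against 165, 40 and 16 (edgeR adjusted p = 0.049), with replicate 1 the highest. Replicate 3 of the Hyper-organoids thus stood out for Defa22, and replicate 1 for Defa34 and Defa5.

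Because the Paneth class was so small in Hyper-organoids, cells were also chosen by Paneth cell genes other than α-defensins. Cells with 3 or more UMIs of at least 4 of Lyz1, Ang4, Mmp7, Itln1 and Mptx2 numbered 22, 31 and 24 in ENR-organoids, 50 and 153 in -VE-organoids, against 47, 44 and 41 in Hyper-organoids. They were 1.01% to 1.19% of the kept cells in ENR-organoids and 1.25% to 2.07% in Hyper-organoids. The annotation put 14, 20 and 16 of those of ENR-organoids in the Paneth class, but 10, 2 and 2 of those of Hyper-organoids, where 25, 41 and 30 were in the goblet class.

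In these marker-chosen cells α-defensins took 28.2%, 25% and 30% of UMIs in ENR-organoids (27.8 ± 2.53%, n = 3), 15.3% and 9.96% in -VE-organoids (12.6 ± 3.81%, n = 2), and 4.47%, 2.90% and 2.08% in Hyper-organoids (3.15 ± 1.21%, n = 3). The 3 groups did not overlap. Lyz1 in the same cells was at 17964, 11306 and 27634 CPM in ENR-organoids and 19142, 5574 and 6353 in Hyper-organoids, so that its ranges did overlap. Itln1, an intelectin, was at 20227, 16391 and 28531 in ENR-organoids and 11052, 9134 and 12486 in Hyper-organoids, lower without overlap. Mmp7, which activates the peptides, was at 1516, 1070 and 1339 in ENR-organoids and 1667, 2423 and 1947 in Hyper-organoids. These genes were used to choose the cells, and Mmp7 and Ang4 were higher in Hyper- than in ENR-organoids as a whole, and their part in the difference was not tested.

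Within the Paneth class, -VE- and ENR-organoids had enough cells for a test. Here 4 of 19 members were lower in -VE-organoids, against 0.701% of the 5995 genes tested, and the median log2 fold change was -0.26. AY761184 was at 11756, 14220 and 11379 CPM of the Paneth class in ENR-organoids and 3818 and 6446 in -VE-organoids, a log2 fold change of -1.47 ± 0.18 (edgeR adjusted p = 0.00025). Defa22 had -1.81 ± 0.25 (edgeR adjusted p = 0.0014), Defa27 -1.88 ± 0.41 (edgeR adjusted p = 0.028) and Defa34 -1.63 ± 0.36 (edgeR adjusted p = 0.029). Defa24 had -0.64 ± 0.17 and Defa30 -0.20 ± 0.21, neither called. In the marker-chosen cells the values were further below 0, with 18 of 18 members tested below 0, a median of -1.40 and 5 called lower, against 0.377% of the 9287 genes tested. The 5 were Defa24 (-1.53 ± 0.27, edgeR adjusted p = 0.019), AY761184 (-2.30 ± 0.44), Defa34, Defa20 and Defa35. The annotation put 18 of 50 and 52 of 153 of these cells in the Paneth class in -VE-organoids, against 14 of 22, 20 of 31 and 16 of 24 in ENR-organoids, and the part of this in the difference was not tested. Within the annotated Paneth class, 1 member was called without ENR-organoids replicate 2. The median log2 fold change in that class was 0.03 without -VE-organoids replicate 2 and -0.76 without -VE-organoids replicate 1.

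Stem and transit amplifying cells had low levels. Outside the Paneth, goblet and enteroendocrine classes, α-defensins took 145, 141 and 216 CPM in ENR-organoids, 132 and 96.2 in -VE-organoids, against 29.1, 12.4 and 15.7 in Hyper-organoids, where the mean was 8.79-fold lower than in ENR-organoids. Of the 18148 α-defensin UMIs behind the 216 CPM, 7553 were from 1 enterocyte-class cell. Without cells at or over 1% the ENR-organoid levels were 145, 130 and 120 CPM and the mean of Hyper-organoids was 6.92-fold lower. Of 16 members, 15 were called lower in Hyper-organoids in this fit, also chosen after the data were seen, against 4.84% of genes, and 15 were called again without the cells at or over 1%. With UMIs pooled over the libraries of a medium, Defa30 made up 17.5% of the α-defensin UMIs of stem cells and 17.5% of those of transit amplifying cells in ENR-organoids, against 18.8% in the Paneth class and 1.42% in the goblet class. In -VE-organoids its share was 14.4% in stem and 18.3% in transit amplifying cells, against 22.4% and 2.49% in the same 2 classes. The pooled Hyper-organoid shares were 9.88% and 7.21%, against 19.9% in the Paneth class, where replicate 1 gave 10 of the 14 cells, and 4.45% in the goblet class. Barcodes outside the kept cells held 540, 628 and 668 α-defensin CPM in ENR-organoids and 407, 94.4 and 94.2 in Hyper-organoids. Free RNA from Paneth cells was not separated from expression in these cells, so the values in stem and transit amplifying cells are not read as expression.

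Of 15 genes that act on α-defensins or on Paneth cell fate, 3 were called higher in Hyper- than in ENR-organoids, against 18.2% of all genes tested, and 1 was called lower, against 4.75%. An adjusted p under 0.05 at any fold was reached by 9 of the 15, against 56.8% of all genes. These shares are close to those of all genes and are not read as a result about the list. Tcf7l2, the Wnt factor named above, was under 2-fold, at 55.6, 56.1 and 54.1 CPM in ENR-organoids and 43.6, 44.2 and 44.9 in Hyper-organoids (log2 fold change -0.45 ± 0.05, edgeR adjusted p = 0.00012). Mmp7 rose by 1.37 ± 0.12 on the log2 scale (edgeR adjusted p = 4.1e-05), Nod2, a sensor of bacterial cell wall, by 2.25 ± 0.30, and Wnt3, a Wnt ligand that Paneth cells make, by 1.74 ± 0.22. Fzd5, a Wnt receptor of Paneth cells, fell by 1.77 ± 0.07. Against -VE-organoids only Nod2 was called (1.99 ± 0.33), where 16.1% of all genes were called higher, and Mmp7 (1.27 ± 0.13) and Wnt3 (1.16 ± 0.24) were higher in -VE- than in ENR-organoids.

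Of 6 other secreted Paneth cell products, 2 were called higher in Hyper- than in ENR-organoids, against 18.2% of all genes, and 1 lower, against 4.75%. Reg3g, a lectin that binds bacteria, was higher by 4.94 ± 0.43 and Ang4, a ribonuclease, by 1.54 ± 0.35. Mptx1, a pentraxin, was lower (-4.83 ± 0.37, edgeR adjusted p = 2.2e-05). Reg3g, Ang4 and Mptx1 were also counted in normal colonic crypts (148, 815 and 7283 CPM), where kept cells held no α-defensin UMI. Lyz1 had -0.44 ± 0.40 (edgeR adjusted p = 0.37), Itln1 -0.42 ± 0.24 (edgeR adjusted p = 0.16) and Mptx2 -0.65 ± 0.93 (edgeR adjusted p = 0.58), where all 19 α-defensins were called lower. Against -VE-organoids Lyz1 (-1.99 ± 0.44), Itln1 (-1.52 ± 0.26) and Mptx1 (-2.68 ± 0.36) were lower in Hyper-organoids and Reg3g was higher (5.90 ± 0.54), while Ang4 (-0.47 ± 0.37, edgeR adjusted p = 0.33) and Mptx2 (-0.77 ± 1.01, edgeR adjusted p = 0.56) were not called. In -VE- against ENR-organoids Ang4 (2.01 ± 0.38) and Itln1 (1.09 ± 0.26) were called higher and Mptx1 (-2.16 ± 0.38) lower.

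Across 50 combinations of library and class with at least 20 cells, the genes most like the summed α-defensins in log2 level were Lyz1 (Pearson's r = 0.97), Spink4 (0.96), Mptx1 (0.94), Itln1 (0.94) and Bhlha15 (0.94), followed by Ssr4, Lyz2, Tram1, Dnajc3 and Guca2a (0.93 to 0.91). The points share libraries and classes, so this is a description. Within the family, Defa17 was most like Defa24 (0.98), and Gm14851 (0.74) and Defa35 (0.68) were less so.

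In kept cells of colonic crypts no α-defensin UMI was detected. The count was 0 of 19906845 UMIs in the normal library and 0 of 32397122 in the DSS library, which allows up to 0.151 and 0.0926 CPM. Lyz1 was at 0.100 and 1.88 CPM in the normal and DSS library. Other Paneth cell products were not all absent. Mptx1 was at 7283 and 90.9 CPM, Ang4 at 815 and 3.64, Reg3g at 148 and 1203 and Itln1 at 25.4 and 1.3. Mptx2 was at 0 in both. With 1 library each, no test was made.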

How the data were processed

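UMI counts per gene and cell barcode were deposited by the authors for 10 libraries (10x 3′ kit), not normalized. The methods name Cell Ranger 3.0.0 and Seurat 3.1.4, the genome is mm10 per the labels, and the file headers name another Cell Ranger version. The deposited annotation lists the kept cells with their classes. The methods state a minimum of 1500 genes and a limit of 25% mitochondrial reads, yet the kept cells reached down to 501 genes and 1375 had under 1500.

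α-Defensin members and gene lists were chosen with earlier results of these data known. All 19 members were fitted, and values by library were given for the 6 with most UMIs and for the largest and smallest fold change of each comparison. UMIs were summed per library over the kept cells and tested with edgeR 4.0.16 in R 4.3.3 (TMM, filterByExpr, quasi-likelihood test, all 8 organoid libraries in 1 fit, Benjamini-Hochberg over all genes). A call needed an adjusted p under 0.05 and at least 2-fold. Within the Paneth class only libraries with at least 20 such cells entered. The test was checked on simulated data with the same spread for every gene and changes only in genes with higher counts. That check does not cover sparse or uneven members. CPM are relative to all UMIs of the cells named, without TMM. DESeq2 1.42.0, RLE factors, other filters, other sets of cells and each library left out were alternatives. No doublet caller was run, and 1 alternative left out the 5% of cells with most UMIs. Of 6 listed Paneth markers, 5 were among the matrix symbols. Gene models and transcripts came from GENCODE for GRCm38, and 0 columns of per-sample values were left unmapped. ENR- and Hyper-organoid libraries with the same replicate number (culture series 2, 6 and C in the sample codes) deviated together over 16037 genes (r = 0.19, 0.17 and 0.44). Between series r was -0.29 to 0.13 for these media, so only series C stood clearly apart. For -VE- with ENR-organoids r was 0.16 and 0.06 (between series -0.16 to 0.08), and with Hyper-organoids 0.14 and 0.12 (between series -0.14 to 0.05). Deviations were taken from the group mean, so those of the 2 -VE-organoid libraries mirror each other. The between-series values with -VE-organoids are therefore no independent reference.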

Additional observations from a re-analysis of the deposited data

Results flagged for a closer look

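Barcodes that the authors did not keep as cells also carried α-defensins. The highest level was 1201 CPM in -VE-organoids replicate 1 (15965 of 13290385 UMIs), against 561 in -VE-organoids replicate 2, 540 to 668 in ENR-organoids and 94.2 to 407 in Hyper-organoids. The colonic libraries, where the kept cells had no α-defensin UMI, held 0 in such barcodes of the normal library and 1 UMI (0.0660 CPM) in those of the DSS library. The level is given here because it was above that of the ENR-organoid and colonic libraries, in barcodes that enter no comparison over kept cells. With all barcodes included, 19 of 19 members were called lower in Hyper- than in ENR-organoids. Groups of 3 libraries or fewer are too small for a check of single outlying libraries.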

How the results depend on the processing

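Of 113 alternative counts of called α-defensins, 95 were within 1.5 times of the count given above, as were all with the replicate block (18, 16 and 0 over all kept cells, 7, 9 and 0 without the Paneth class, 6 within it). Over all kept cells the block cost the call of Defa32 in Hyper-organoids against both other groups, without the Paneth class it cost that of Defa23 against -VE, and within the Paneth class it added Defa20 (-1.07) and Defa35 (-1.13). Leaving out each library in turn gave 18 to 19, 13 to 18 and 0 to 1 calls over all kept cells for Hyper against ENR, Hyper against -VE and -VE against ENR, 6 to 7, 7 to 11 and 0 to 1 without the Paneth class, and 1 to 6 within it. A minimum of 10 CPM in 2 libraries left 12 members to test, of which 12 were called in Hyper against ENR, and without the Paneth class left 5, of which 3 and 5 were called against ENR and -VE. Fewer were tested, and Defa17 (-0.92 against ENR) also fell under 2-fold. Without the Paneth class, Hyper against ENR gave 11 calls without marker-chosen cells, 13 without cells at or over 1% and, added after seeing the data, 15 without the goblet and enteroendocrine classes, with or without the remaining cells at or over 1%. Goblet cells alone, also added, gave 5 against -VE, of which 2 were higher. In -VE against ENR, DESeq2 gave 1 call over all kept cells and 2 without the Paneth class, and leaving out cells at or over 1% gave 1, or 2 when the goblet and enteroendocrine classes were left out as well. Within the Paneth class, DESeq2 gave 2 and libraries with 1 Paneth cell or more gave 2. Apart from the numbers tested, the causes were not tested. In -VE against ENR, Defa30 was close to 0 (-0.35 to 0.20 with each library left out) and changed sign. It was 0.20 without -VE-organoids replicate 2 and 0.07 without ENR-organoids replicate 3. With every barcode it was 0.02, with the 1500-gene minimum 0.07 and without the 5% of cells with most UMIs 0.12. In Hyper against ENR, Defa30 went from -0.81 ± 0.27 without the Paneth class to 0.21 in goblet cells alone. Among 51 results for single members, 737 of 794 alternatives kept direction and side of the threshold, 45 lost the call, 6 gained one and 6 changed sign. Summing the members to 1 gene gives a fold and no count (log2 -2.56, -2.38 and -0.18). Depth limits Defa32, Defa20 and Defa35, with 10, 27 and 34 UMIs in Hyper-organoids.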

Other observations

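β-Defensins, the epithelial relatives of the α-defensins, were sparse. Of 42 Defb symbols in the matrices, 3 passed the expression filter. Defb37 was at 4.37, 5.08 and 4.97 CPM in ENR-organoids, 3.58 and 2.70 in -VE-organoids, against 0.130, 1.53 and 0.997 in Hyper-organoids. It was lower in Hyper-organoids, with log2 fold changes of -2.57 ± 0.64 against ENR-organoids (edgeR adjusted p = 0.0094) and -1.96 ± 0.68 against -VE-organoids (edgeR adjusted p = 0.044). Defb40 was lower likewise, -2.63 ± 0.52 (edgeR adjusted p = 0.0030) and -1.91 ± 0.56 (edgeR adjusted p = 0.024), and Defb36 was not called in any comparison. Unlike the α-defensins, Defb37 was present in colonic crypts, at 7.23 CPM in the normal and 7.99 in the DSS library.

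Members also differed in how far their UMIs were restricted to the Paneth class. Across the 19 members, the share of UMIs in the Paneth class of -VE-organoids and the log2 fold change of Hyper- against ENR-organoids had a Pearson's r of -0.38 and a Spearman's rho of -0.33, as a description over genes that share libraries and reads. The 12 members with at least 80% of their UMIs in the Paneth class had a median of -3.37 (-6.14 to -1.86), and the other 7 a median of -3.07 (-5.01 to -1.83). With this split the ranges of both sets overlapped over most of their length. By the shares in ENR-organoids, AY761184 (87%) and Defa27 (96.8%) would move to the set with at least 80%. AY761184 gave the -5.01 of the other set, so medians and overlap depend on the medium used for the split.

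In ENR-organoids replicate 3, 1 cell of the enterocyte class held 7553 α-defensin UMIs. Its enterocyte class was at 858 CPM, against 73.7 and 92.0 in the other ENR-organoid libraries.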
